A study of Arabidopsis thaliana with 8 samples.

Results

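The glyoxylate cycle and gluconeogenesis genes described here are ICL, MLS, PCK1, PMDH1, PMDH2, CSY2, CSY3, ACO3 and PPDK. They are 9 of 29920 loci measured on Affymetrix Agronomics tiling arrays. They were chosen by name for their place in the pathway, with earlier results of these data known. Counts set beside shares of all loci therefore describe the set and do not test it. Each gene was found by locus code, with exactly 1 entry in the table. The study compared seedlings of the Arabidopsis root meristemless1 (rml1) mutant with Columbia-0 wild type in 4 groups: rml1 shoots (3 arrays, pools of 61, 65 and 108 shoots), wild type shoots (3 arrays, 30 shoots each), rml1 roots (1 array, 234 roots) and wild type roots (1 array, 90 roots). All seedlings were 7 days old and grew on vertical plates of the same sucrose-containing medium. The rml1 lesion lies in GSH1, which encodes the first enzyme of glutathione synthesis; the labels name no allele and give an ecotype for the wild type alone.

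Isocitrate lyase and malate synthase carry acetyl-CoA from fatty acid breakdown past the steps of the tricarboxylic acid cycle that release carbon dioxide. Citrate synthase, aconitase and malate dehydrogenase supply the remaining reactions of the glyoxylate cycle. Phosphoenolpyruvate is the starting point for sugar synthesis. Phosphoenolpyruvate carboxykinase makes it from oxaloacetate, and pyruvate orthophosphate dikinase makes it from pyruvate. In Arabidopsis the pathway is best known from germination, when it turns stored oil into sugar before leaves can photosynthesise.

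A value is the log2 level of a locus on an array as the authors deposited it, and the median locus stood between 3.84 and 3.98 on every array. Across loci, Pearson's r was 0.992 to 0.994 between rml1 shoot arrays, 0.990 to 0.992 between wild type shoot arrays and 0.967 to 0.977 between the genotypes. Of the genes listed as green tissue markers, 8 of 10 were measured; their summed linear level was 40935 to 41793 in rml1 shoots, 42959 to 44950 in wild type shoots, while the rml1 root had 4269 and the wild type root 2349. The summed level of 10 genes of root endodermis and root hairs was 226 to 277 in rml1 shoots, 199 to 214 in wild type shoots, while the rml1 root had 979 and the wild type root 2920. The organ labels and these markers went the same way. In tissue samples like these, fewer cells of a type and less RNA per cell cannot be told apart.

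In rml1 shoots 8 of the 9 genes rose and 1 fell, so that all 9 changed, against 23.9% of all loci (limma over all loci, Benjamini-Hochberg adjusted p under 0.05). Of all loci, 13.3% rose and 10.6% fell. The 8 rises were at least 2-fold, as at 2.66% of all loci. The median change was 2.58 log2 units over the 9 genes and -0.03 over all loci. The 3 rml1 and 3 wild type shoot arrays did not overlap at any of the 9 genes. Non-overlapping groups were found at 21.9% of all loci with rml1 higher and at 20.2% with rml1 lower.

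**Figure D1:**
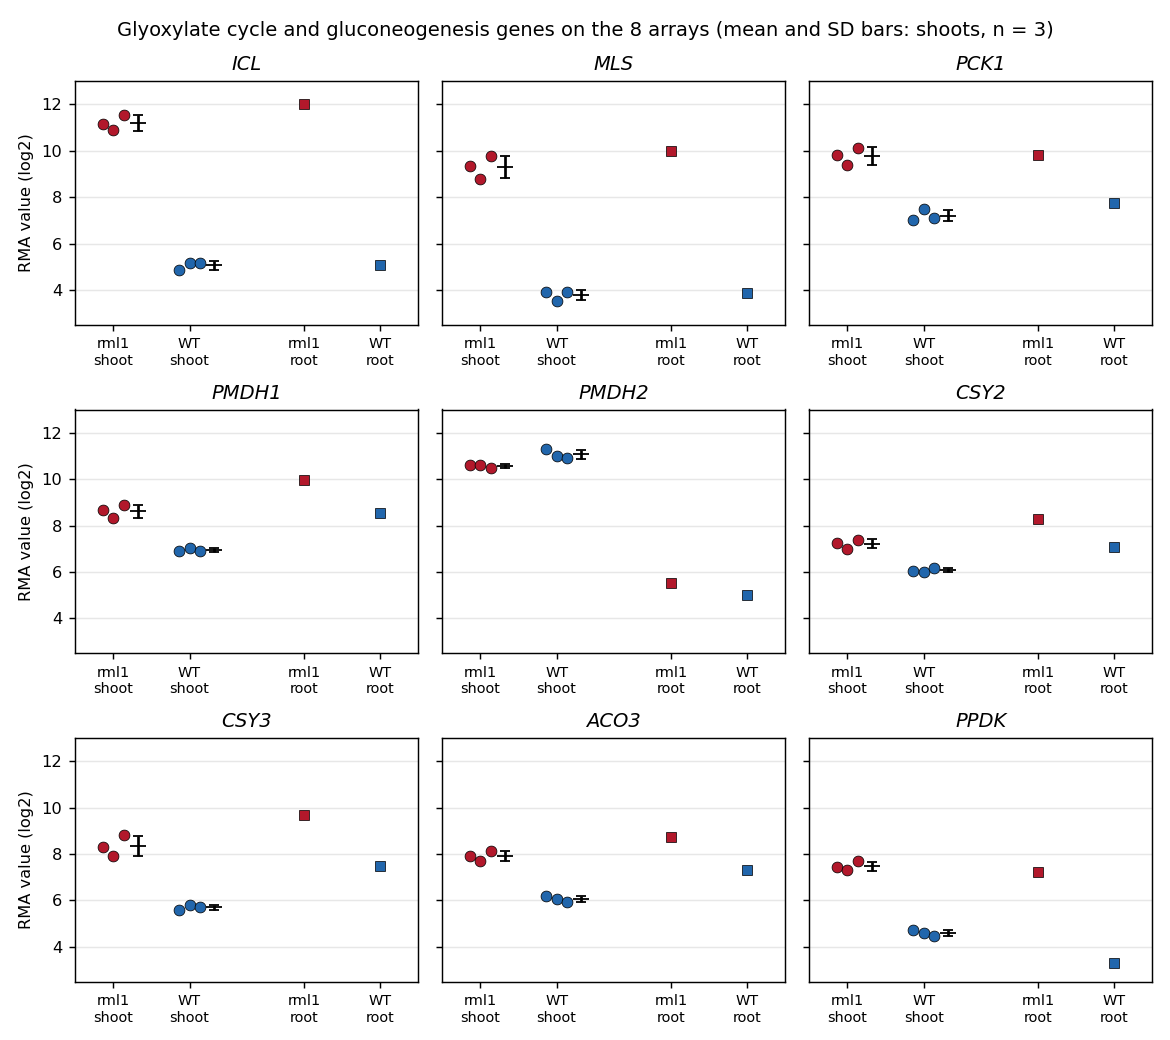
RMA values (log2) of the 9 genes on each array, with rml1 in red and wild type (WT) in blue, shoots as circles and roots as squares; bars beside the shoot points are the mean and SD of 3 arrays. ICL and MLS lie at or above 8.80 on all 4 rml1 arrays and at or below 5.17 on all 4 wild type arrays, while PMDH2 is the one gene lower in rml1 shoots.

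Both enzymes that are specific to the glyoxylate cycle had the largest changes of the set. ICL (AT3G21720), isocitrate lyase, which splits isocitrate into succinate and glyoxylate, was at 11.13, 10.89 and 11.55 in rml1 shoots, against 4.85, 5.17 and 5.15 in wild type shoots. The gap between the lowest rml1 array and the highest wild type array was 5.72 log2 units. ICL ranked 2nd of all loci by size of rise (log2 change 6.13, SE 0.18, adjusted p = 3.29e-05). In rml1 it was higher than at least 99.2% of loci on each shoot array, and in wild type shoots higher than 62.0% to 66.0%.

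MLS (AT5G03860), malate synthase, joins glyoxylate with acetyl-CoA to form malate. Its values were 9.32, 8.80 and 9.76 in rml1 shoots, against 3.89, 3.54 and 3.93 in wild type shoots. This was the 4th largest rise (log2 change 5.50, SE 0.24, adjusted p = 9.95e-05). In wild type shoots MLS stood at the middle of all loci, above 45.9% to 50.9% of them. Detection above background was not analysed here, so the size of the MLS fold rests on a low wild type level.

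The gluconeogenic enzymes PPDK and PCK1 rose as well, by less. PPDK (AT4G15530), pyruvate orthophosphate dikinase, makes phosphoenolpyruvate from pyruvate. It was at 7.44, 7.31 and 7.68 in rml1 shoots and at 4.74, 4.60 and 4.48 in wild type shoots, a rise of 7.31-fold (log2 change 2.87, SE 0.13, adjusted p = 9.95e-05). The gene is known to give both a plastid and a cytosolic form of the enzyme, which a single value per locus does not separate. PCK1 (AT4G37870), phosphoenolpyruvate carboxykinase, makes phosphoenolpyruvate from oxaloacetate in the cytosol. Its values were 9.81, 9.37 and 10.14 in rml1 shoots, against 7.01, 7.47 and 7.10 in wild type shoots, a rise of 5.96-fold (log2 change 2.58, SE 0.21, adjusted p = 0.000441). Unlike ICL and MLS, PCK1 was well above the middle of the scale in wild type shoots, where it exceeded 85.1% to 88.8% of loci.

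Of the peroxisomal citrate synthases in the set, which condense acetyl-CoA with oxaloacetate, CSY3 had the larger change. CSY3 (AT2G42790) was at 8.30, 7.92 and 8.80 in rml1 shoots and at 5.60, 5.80 and 5.72 in wild type shoots, 6.23-fold higher in rml1 (log2 change 2.64, SE 0.21, adjusted p = 0.000412). CSY2 (AT3G58750) was at 7.25, 7.00 and 7.39 in rml1 shoots and at 6.06, 6.02 and 6.17 in wild type shoots, 2.19-fold higher in rml1 (log2 change 1.13, SE 0.12, adjusted p = 0.00101). The change of CSY3 exceeded that of CSY2 by 1.51 log2 units within arrays, with the difference CSY3 minus CSY2 at 1.13 ± 0.26 in rml1 shoots and -0.38 ± 0.14 in wild type shoots (SD, n = 3 each). These differences did not overlap, and the two-sided exact permutation test gave p = 0.1, the smallest p that 3 against 3 arrays allow.

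The peroxisomal malate dehydrogenases changed in opposite directions. PMDH1 (AT2G22780) was at 8.69, 8.31 and 8.87 in rml1 shoots and at 6.91, 7.03 and 6.91 in wild type shoots, a rise of 3.18-fold (log2 change 1.67, SE 0.15, adjusted p = 0.00056). PMDH2 (AT5G09660) was at 10.61, 10.61 and 10.48 in rml1 shoots and at 11.29, 10.99 and 10.93 in wild type shoots. It was the gene of the set that fell, by 0.50 on the log2 scale (SE 0.12, adjusted p = 0.0219), and was 1.42-fold higher in the wild type. The PMDH2 call was lost without rml1 shoot replicate 1 (adjusted p = 0.058) and without rml1 shoot replicate 3 (adjusted p = 0.0798). Within arrays, PMDH1 minus PMDH2 was -1.95 ± 0.34 in rml1 shoots and -4.12 ± 0.23 in wild type shoots (SD, n = 3 each), a difference of change of 2.17 (two-sided exact permutation p = 0.1, the smallest possible). A level of one gene cannot be set against that of another on these arrays, so the comparison of these differences is between genotypes.

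ACO3 (AT2G05710) encodes an aconitase, which interconverts citrate and isocitrate. It was at 7.91, 7.68 and 8.14 in rml1 shoots and at 6.18, 6.08 and 5.94 in wild type shoots. This is a rise of 3.58-fold (log2 change 1.84, SE 0.14, adjusted p = 0.000319), the 194th largest of all loci.

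**Figure D2:**
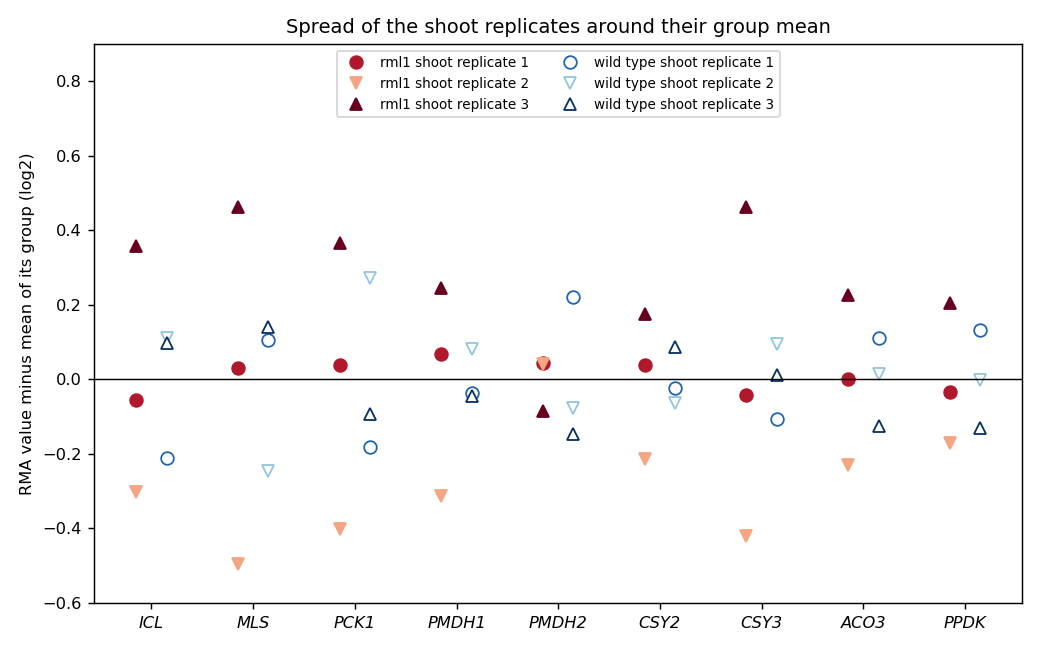
Deviation of each shoot array from the mean of its genotype (log2), for rml1 (filled symbols) and wild type (open symbols); circles, downward and upward triangles are replicates 1, 2 and 3. In the 8 genes that rose, rml1 replicate 3 is the highest and rml1 replicate 2 the lowest of its group.

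The 8 genes that rose shared the same spread among the rml1 shoot arrays. In each of them rml1 replicate 3, the pool of 108 shoots, was highest, replicate 1 was between, and replicate 2 was lowest. The same order was found at 20.2% of all loci, at 41.5% of the 3970 loci that rose and at 50.4% of the 797 loci that rose at least 2-fold. Replicate 3 exceeded replicate 2 by 0.37 log2 units for PPDK and by up to 0.96 for MLS, while the median difference over all loci was -0.01. The values of the 8 genes on these arrays are therefore not 8 separate observations. PMDH2 had its lowest rml1 value in replicate 3. No such shared order was seen in the wild type shoots, where the highest array was replicate 2 for ICL, PCK1, PMDH1 and CSY3, replicate 3 for MLS and CSY2, and replicate 1 for PMDH2, ACO3 and PPDK.

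In roots there was 1 array per genotype, so differences have no replicate error and were not tested. All 9 genes were higher in the rml1 root, and 8 of them by at least 1 log2 unit, a difference found in that direction at 5.25% of all loci. A higher value of any size in the rml1 root was found at 48.5% of loci. The median root difference was 2.06 over the 9 genes and -0.01 over all loci. The pooled roots of a genotype are as many as its shoots (234 for rml1 and 90 for the wild type); whether both organs came from the same seedlings is not given in the sources used here.

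**Figure D3:**
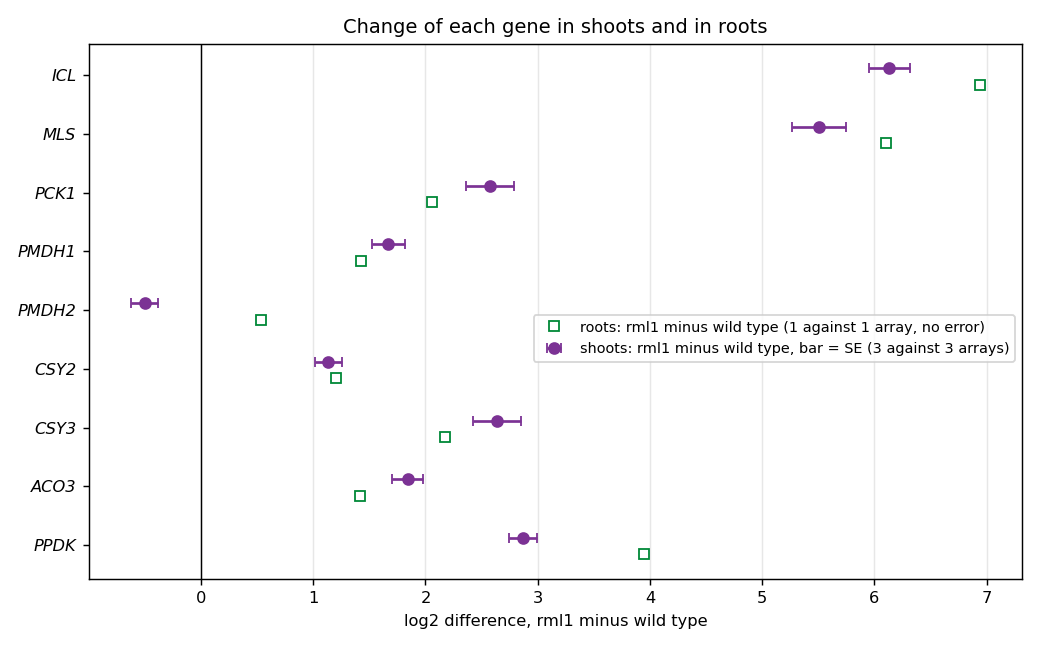
Difference rml1 minus wild type (log2) of each gene in shoots (filled circles, bars are the SE, 3 against 3 arrays) and in roots (open squares, 1 against 1 array, no error). ICL and MLS differ most in both organs, and PMDH2 lies on opposite sides of 0.

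ICL reached 12.03 in the rml1 root, against 5.09 in the wild type root, a difference of 6.94 that was the largest of all loci. MLS was at 9.97 in the rml1 root and 3.87 in the wild type root, and its difference of 6.11 was the 4th largest. The wild type root values of both genes lay inside the range of the wild type shoot arrays, whereas the rml1 root values lay above all 3 rml1 shoot arrays. PPDK was at 7.24 in the rml1 root and 3.29 in the wild type root, a difference of 3.94. That wild type value was below the median locus of its array, and lower than in any wild type shoot array. PCK1 was at 9.81 in the rml1 root and 7.74 in the wild type root, a difference of 2.06, and its rml1 root value lay within the range of the rml1 shoots.

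CSY3 was at 9.67 in the rml1 root and 7.49 in the wild type root, and CSY2 at 8.28 in the rml1 root and 7.07 in the wild type root. The differences were 2.18 for CSY3 and 1.20 for CSY2, the same order as in shoots. ACO3 was at 8.74 in the rml1 root and 7.33 in the wild type root, and PMDH1 at 9.96 in the rml1 root and 8.53 in the wild type root. Their differences were 1.42 and 1.43. CSY2, CSY3, ACO3 and PMDH1 were all higher in the root than in every shoot array of the same genotype, by 0.83 to 1.34 log2 units above the shoot mean in rml1 and by 0.99 to 1.79 in the wild type.

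PMDH2 had the reverse organ pattern. It was at 5.53 in the rml1 root, 5.03 log2 units below the mean of the rml1 shoots. In the wild type root it was 6.07 log2 units below the mean of the wild type shoots. The root difference of 0.53 was opposite in sign to the shoot change of -0.50.

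The order of the 4 groups differed between the genes. For ICL and MLS the rml1 root stood highest, then the rml1 shoots, and the wild type root and shoots did not differ beyond the spread of the shoot arrays. For PCK1 the rml1 root lay among the rml1 shoots, and for PPDK it lay below them and above both wild type groups. For CSY2, CSY3, ACO3 and PMDH1 the rml1 root stood highest and the wild type shoots lowest. Between these, the wild type root lay among the rml1 shoots for CSY2 (7.07, against 7.00 to 7.39 in rml1 shoots) and PMDH1 (8.53, against 8.31 to 8.87 in rml1 shoots). For CSY3 and ACO3 the wild type root was below all 3 rml1 shoot arrays.

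The 5 loci whose profile over the 8 arrays was nearest to that of ICL were found from the root mean square difference of log2 values, each centred on the mean of its locus. MLS was the nearest, at 0.39, followed by TH8 (AT1G69880), an h-type thioredoxin, at 0.72. AT5G09570 was at 1.10, AT2G21640, a marker of oxidative stress, at 1.22 and AT2G18193 at 1.22. TH8 was at 8.66, 8.35 and 9.30 in rml1 shoots and at 3.26, 3.27 and 3.32 in wild type shoots. In roots its values were 10.24 in rml1 and 4.98 in the wild type. Among the other genes of the set, PPDK was the 19th nearest locus, PCK1 the 36th, CSY3 the 41st, ACO3 the 145th, PMDH1 the 186th and CSY2 the 402nd, while PMDH2, at 29696th, was among the farthest. The measure favours loci with a change as large as that of ICL.

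Of 87 other genes around the pathway, in 7 lists, 44 rose in rml1 shoots, 9 fell and 34 did not pass, with a median of 0.41, where 13.3% of all loci rose and 10.6% fell. The falls were thus near their share of all loci. These lists, too, were chosen with earlier results of these data known. The list with the highest median was peroxisomal fatty acid beta-oxidation, which supplies acetyl-CoA to the glyoxylate cycle. Of its 14 genes, 12 rose and 2 did not pass, with a median of 1.42, and 8 were at least 1 log2 unit higher in the rml1 root while 1 was at least 1 unit lower, differences found at 5.25% and 7.33% of all loci. MFP2, the multifunctional protein, led the rises, at 7.75 ± 0.45 in rml1 shoots and 5.37 ± 0.06 in wild type shoots (SD, n = 3 each; log2 change 2.38, SE 0.21, adjusted p = 0.000564).

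**Figure D4:**
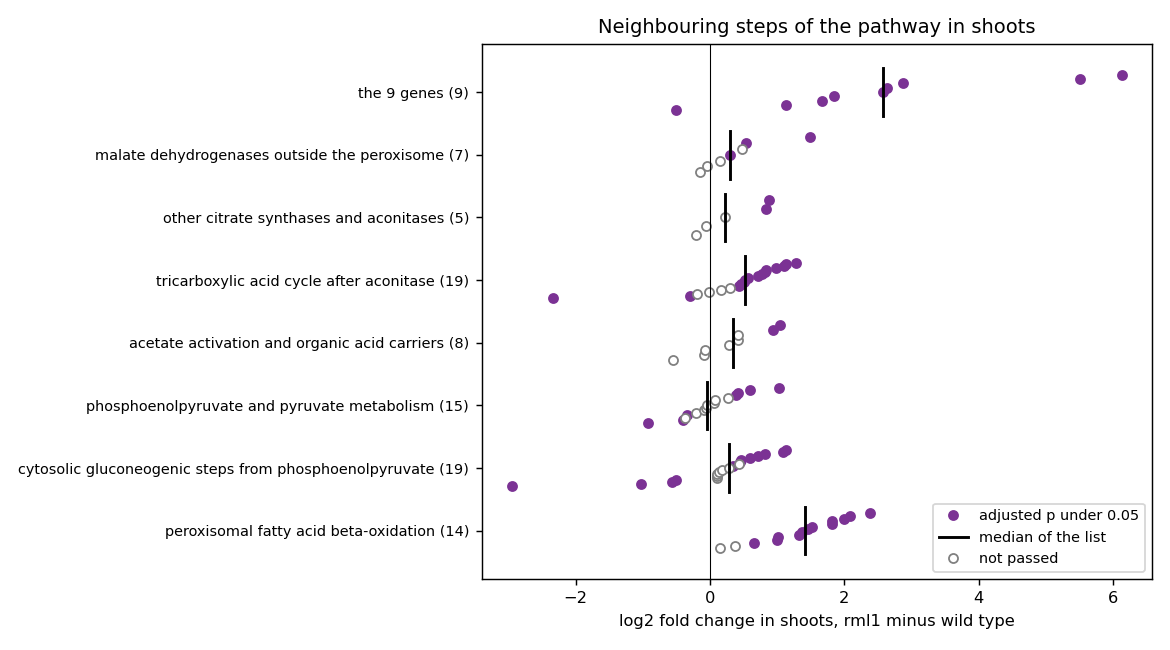
Log2 fold change in shoots, rml1 minus wild type, of the 9 genes and of 7 lists of neighbouring steps (number of genes in brackets); filled points passed an adjusted p of 0.05, open points did not, and vertical bars are medians. The 9 genes have a median of 2.58, beta-oxidation 1.42, and the other lists lie between -0.04 and 0.52.

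The same reactions are also catalysed by other enzymes elsewhere in the cell. Of 7 malate dehydrogenases outside the peroxisome, 3 rose and 4 did not pass, with a median of 0.29, where 13.3% of all loci rose. Of the rises, mMDH2 passed narrowly (log2 change 0.29, SE 0.09, limma adjusted p = 0.0458). With any 1 shoot array left out, 2 genes of this list rose. The cytosolic cMDH2 (AT5G43330) rose by 1.49 (SE 0.14, adjusted p = 0.000631), to 8.85 ± 0.20 in rml1 shoots against 7.36 ± 0.18 in wild type shoots. Among citrate synthases outside the peroxisome, the mitochondrial CSY4 rose by 0.88 (SE 0.11). A further citrate synthase, CSY1, is not counted here among those outside the peroxisome. CSY1 is among the 87 listed genes, and its change of -0.20 (SE 0.23, limma adjusted p = 0.564) did not pass. It was near the low end of the scale, at 2.17 ± 0.15 in rml1 shoots and 2.38 ± 0.48 in wild type shoots.

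In the tricarboxylic acid cycle after aconitase, 13 of 19 genes rose, 2 fell and 4 did not pass, with a median of 0.52. The shares of all loci were 13.3% for rises and 10.6% for falls. SDH1-1, a subunit of succinate dehydrogenase, which oxidises succinate such as that made by isocitrate lyase, rose by 1.28 (SE 0.14, adjusted p = 0.00103). FUM2 (AT5G50950), the cytosolic fumarase, had the largest fall of this list, at 1.80, 1.43 and 1.61 in rml1 shoots and 4.46, 3.54 and 3.83 in wild type shoots (log2 change -2.33, SE 0.23, adjusted p = 0.00079). Its rml1 values lay below the lower quartiles of those arrays (2.14 to 2.24), so the size of this fall is uncertain. The other fall was IDH3, with adjusted p = 0.0479, and 11 of 13 alternatives left 1 or 0 falls in this list.

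Of 8 genes of acetate activation and organic acid carriage, 2 rose and 6 did not pass, with a median of 0.35, where 13.3% of all loci rose. PXN, an NAD carrier of the peroxisomal membrane, rose by 1.04 (SE 0.11), and SFC1, a mitochondrial succinate-fumarate carrier, rose by 0.93 (SE 0.12). ACN1, which activates acetate in the peroxisome, had a change of -0.55 (SE 0.25) and did not pass (adjusted p = 0.161).

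Around phosphoenolpyruvate and pyruvate, 4 of 15 genes rose, 3 fell and 8 did not pass, with a median of -0.04, against 13.3% of all loci that rose and 10.6% that fell. PPC1, a phosphoenolpyruvate carboxylase, rose by 1.02 (SE 0.13), and PPCK1, a kinase of that enzyme, fell by 0.92 (SE 0.13). PCK2, the other phosphoenolpyruvate carboxykinase gene, was at 2.07 ± 0.16 in rml1 shoots and 2.12 ± 0.06 in wild type shoots. Its change of -0.05 (SE 0.11) did not pass, and in roots it was at 2.27 in rml1 and 3.78 in the wild type, opposite in sign to PCK1. PCK2 lay below the lower quartile of each shoot array (2.14 to 2.37) and below the median of each root array (3.95 in rml1, 3.98 in the wild type). Its changes are therefore uncertain. Of the PPDK regulatory proteins, RP2 rose by 0.41 (SE 0.09) and RP1 fell by 0.35 (SE 0.09). Without rml1 shoot replicate 3 this list had 2 rises and 1 fall, and without wild type shoot replicate 2 or 3 it had 2 rises.

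The cytosolic steps that lead from phosphoenolpyruvate towards hexose were mixed: 8 of 19 genes rose, 4 fell and 7 did not pass. Their median was 0.29, and 13.3% of all loci rose while 10.6% fell. FBA6, a fructose-bisphosphate aldolase, rose by 1.12 (SE 0.13, adjusted p = 0.00135). Its relative FBA5 had the largest fall, at 6.42, 7.23 and 6.23 in rml1 shoots and 9.86, 9.37 and 9.47 in wild type shoots (log2 change -2.94, SE 0.27, adjusted p = 0.000589). The cytosolic fructose-1,6-bisphosphatase, listed as cyFBP (AT1G43670), fell by 0.50 (SE 0.09), at 9.11 ± 0.08 in rml1 shoots and 9.61 ± 0.10 in wild type shoots (SD, n = 3 each). Without rml1 shoot replicate 1 or 3, 5 genes of this list rose.

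ICL and MLS are known from oil-storing seedlings and from senescing leaves, so markers of seeds and of senescence are given beside them. Of 13 seed storage and embryo genes, 0 rose, 1 fell and 12 did not pass in shoots by limma, where 13.3% of all loci rose and 10.6% fell. At an unadjusted p under 0.05, 0 of these seed genes were higher, and 1 rose without rml1 shoot replicate 2. On all 6 shoot arrays, 11 of them were below the median locus. Their summed linear level was 89.9 to 97.3 in rml1 shoots, 95.3 to 121 in wild type shoots, while the rml1 root had 88.0 and the wild type root 82.8. Of 7 leaf senescence genes, 2 rose, 1 fell and 4 did not pass in shoots, and 4 were at least 1 log2 unit higher in the rml1 root, where of all loci 13.3% rose, 10.6% fell and 5.25% were that much higher in the root. The median change of the list in shoots was 0.17. NAC092 rose by 1.41 in shoots (SE 0.17, adjusted p = 0.00154). The 4 genes higher in the rml1 root by that much were NAC092 (3.20), SAG13 (2.97), SEN1 (2.86) and SGR1 (1.62), while WRKY53 was lower (-0.88). GLN1;1, a cytosolic glutamine synthetase, rose by 2.14 (SE 0.16, adjusted p = 0.000335) in shoots. The summed level of the senescence list was 2427 to 2799 in rml1 shoots, 932 to 1096 in wild type shoots, while the rml1 root had 5190 and the wild type root 2286. Without GLN1;1 the sum of the other 6 genes was 850 to 947 in rml1 shoots, 481 to 768 in wild type shoots, while the rml1 root had 1140 and the wild type root 236. SAG12, a defining senescence marker, was near the low end of the scale on every array, from 1.69 to 1.83 in rml1 shoots and from 2.12 to 2.23 in wild type shoots. The part of these other programmes in the changes of the 9 genes was not tested.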

How the data were processed

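RNA was biotin-labelled, 1 sample per array. Values are RMA log2 values, as deposited: per the submitters' processing notes, the authors used RMA, a method that corrects background, quantile-normalizes and summarises probes, and that can compress very low and very high values. Its version was not given in the sources used here, nor were the probes of each locus or the build, and no genome positions are printed. The 30237 entries were averaged to 29920 loci. Of these, 29398 had a name in a RefSeq gene table (assembly TAIR10.1), used for names alone. Sequences were not analysed here.

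The shoot comparison used limma 3.58.1 (R 4.3.3), with lmFit and eBayes on genotype alone, a two-sided test, Benjamini-Hochberg adjustment over all loci and calls at an adjusted p under 0.05. The fit was also run on simulated data with independent noise at each locus. That simulation lacked the spread that the rising genes shared, and no result given here rests on it. Errors are SDs of arrays or SEs of the log2 change, and summed levels add 2 to the power of each value. Isoform pairs were compared by exact permutation over the 6 shoot arrays. Roots, with 1 array each, had no test. The labels call the shoot samples biological replicates and give no batch; whether replicate numbers link the genotypes was checked from correlations of deviations from group means, which were -0.10 to 0.00 for same-numbered arrays, so they were not treated as pairs.

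The genes and lists were chosen with earlier results of these data known. Named genes are the 9 genes, the largest called rise and fall of each list, and the 5 loci nearest to ICL; the other list genes given as examples were chosen after their values were seen. Plots were made in Python 3.11.15 with matplotlib 3.10.9.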

Additional observations from a re-analysis of the deposited data

Results flagged for a closer look

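At 21 of the 134 genes of the set and the lists (15.7%, against 13.6% of all loci) the rml1 and wild type shoot arrays did not overlap while the single root arrays differed the opposite way. The difference between organs was not tested, and the roots have 1 array per genotype. In the set itself this was PMDH2, which fell by 0.50 in shoots and differed by 0.53 in roots.

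Among the pathway lists, the genes that rose in shoots were KAT5, with a root difference of -1.56, SFC1 (-0.33), SCOAL-B (-0.13), PFPb1 (-0.11), NADP-ME2 (-0.062), mMDH2 (-0.0584) and IDH2 (-0.0141). The genes that fell in shoots were RP1, with a root difference of 0.81, and cyFBP (0.59). The shoot changes of PFPa1 (root difference -0.83), ENO3 (-0.37), cMDH3 (-0.36) and CSY5 (0.76) did not pass. Several of these root differences are close to 0, and the shoot call of mMDH2 was near the threshold (limma adjusted p = 0.0458).

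Among the marker lists, CASP1, a Casparian strip protein, rose by 0.57 in shoots and differed by -1.86 in roots. GLK1, a regulator of chloroplast genes, fell by 0.51 in shoots and differed by 0.37 in roots. CRC, a seed storage protein, fell by 0.45 in shoots and differed by 0.34 in roots. SAG12 fell by 0.41 in shoots and differed by 0.00429 in roots, which is close to no difference. The shoot changes of the photosynthesis genes RCA (root difference 0.52), PETC (0.35) and PSAF (0.17) did not pass. No group had 4 or more arrays, so no array was tested for standing apart from its group.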

How the results depend on the processing

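The alternatives were quantile normalization or median centring, a filter on low loci, the trend and robust options of eBayes, a replicate block, array weights, each entry by itself, a stricter threshold and each shoot array left out. Under all of them 8 of the 9 genes rose. The fall of PMDH2 was not called at an adjusted p under 0.01 (0 falls), and with 1 array left out 0 to 1 genes fell: its log2 change ranged from -0.57 to -0.39 with adjusted p from 0.0284 to 0.0798, and was lost without rml1 shoot replicate 1 (-0.52) or 3 (-0.46); each leaves fewer arrays. With the replicate block the set had 8 rises and 1 fall, and PMDH2 had a limma adjusted p = 0.0373. The 7 pathway lists had 39 rises and 6 falls with the block, against 44 and 9 without it. Of all 29920 loci, 2851 rose and 2338 fell with the block, against 3970 and 3168 without it. Replicate numbers share no stated source. Root differences moved by at most 0.07 under other scalings.

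The calls over all loci moved with the settings. Of 29920 loci, 3970 rose in the report, 2526 without rml1 shoot replicate 3 and 4305 with array weights. Falls were 3168 in the report, and 1982 and 3545 in these alternatives. The filter left 14960 loci, of which 4522 rose and 2937 fell. Over all alternatives, rises ranged from 5 to 9 (8 in the report) for the 19 genes of cytosolic gluconeogenic steps. Around phosphoenolpyruvate (15 genes), rises ranged from 2 to 5 (4) and falls from 1 to 3 (3). For the 7 malate dehydrogenases outside the peroxisome, rises ranged from 2 to 4 (3). Falls ranged from 0 to 2 (2) in the tricarboxylic acid cycle (19 genes) and from 0 to 2 (1) for the 13 seed genes. They ranged from 0 to 1 (1) for the 7 senescence genes and from 1 to 4 (1) for the 8 green tissue genes measured. Rises ranged from 2 to 4 (2) for senescence genes, 0 to 2 (1) for the 10 root genes and 0 to 1 (0) for seed genes. The calls of CASP1, CRC and SAG12 were lost in at least 1 alternative (highest adjusted p 0.0658, 0.087 and 0.058). Beside these, the cause of each shift was not tested. The small number of arrays limits precision, and signal over background was not analysed here.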

Other observations

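Of the pathway genes that differed in direction between organs, 3 are given by array, chosen after their values were seen. KAT5, a 3-ketoacyl-CoA thiolase of beta-oxidation, was at 7.83, 7.76 and 8.07 in rml1 shoots and at 6.09, 6.53 and 6.65 in wild type shoots, a rise of 1.46 (SE 0.16, adjusted p = 0.00124). In roots it was at 5.66 in rml1 and 7.22 in the wild type. The cytosolic fructose-1,6-bisphosphatase cyFBP, which fell by 0.50 in shoots, was at 6.43 in the rml1 root and 5.84 in the wild type root. RP1, a regulator of PPDK, fell by 0.35 in shoots and was at 4.21 in the rml1 root against 3.40 in the wild type root. The differences between organs were not tested.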
